A study of Rattus norvegicus with 90 samples.

Results

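Of the 40071 Ensembl transcripts that were quantified in every library, 3 are described here: ENSRNOT00000016152 (3191 bases), ENSRNOT00000026473 (2638 bases) and ENSRNOT00000005311 (5825 bases). They were chosen by name, because earlier results of these data had shown their levels in vehicle-treated hepatocytes at 24 h to be far from those of the other hepatocyte conditions. Those levels are therefore given as a description, with no test, and each comparison tested for dose or time is one between groups other than the hepatocytes of 24 h. RNA had been sequenced from 90 cultures of Sprague-Dawley rat cells, 5 in each of 18 conditions. Primary hepatocytes received vehicle or thioacetamide-S-oxide at 0.025 mM (low dose) or 0.125 mM (high dose), renal proximal tubular epithelial cells received vehicle, 0.125 mM or 0.5 mM, and cardiomyocytes received vehicle, 0.5 mM or 1.5 mM, each for 9 or 24 h. Vehicle was maintenance medium, for which the labels name a product for hepatocytes and renal cells only.

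Thioacetamide-S-oxide is formed when the liver oxidises thioacetamide, a compound used in rodents to injure the liver. A transcript is one spliced product of a gene, and a gene can make several. Reads that fit more than one transcript are divided among them by the quantification, so that a low count of one transcript does not give the level of its gene. No table at hand paired these identifiers with genes: 0 of the 40071 transcripts were matched, so that the function of the 3 transcripts and the cell type markers are not given. The hepatocytes and renal cells had been bought as cryopreserved stocks, the origin of the cardiomyocytes is not given in the sources used here, and nothing in the labels says that the 5 cultures of a condition came from separate animals. The spread between libraries, and each p-value, may thus be a technical one.

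Levels are given as CPM, the estimated count of a transcript scaled by the summed estimated count of all transcripts of the library. TPM, which also divides by length, is used where transcripts are compared with each other. The libraries held between 2993135 and 61897142 estimated counts. Vehicle hepatocyte library MS-183 at 24 h stood apart, with 249303 counts on transcripts, 8.33% of its total, against at least 84.1% in each of the other 89 libraries. Means, ranks and differences of the vehicle hepatocytes at 24 h are therefore given with and without it. These 5 libraries carry the numbers MS-181 to MS-185, which follow the cardiomyocyte libraries MS-151 to MS-180, whereas the other hepatocyte libraries carry numbers between MS-91 and MS-120. Library number and condition cannot be told apart here. In cultures of mixed RNA, fewer cells of a type and less RNA per cell cannot be told apart either.

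ENSRNOT00000016152 was well expressed in 17 of the 18 conditions and close to 0 in vehicle hepatocytes at 24 h. In libraries MS-181, MS-182, MS-183, MS-184 and MS-185 it had 0.745, 1.06, 12.03, 0.779 and 0.619 CPM, from 15, 20, 3, 22 and 13 counts. The 3 counts of MS-183 allow 2.48 to 35.2 CPM (95% exact Poisson interval, which covers counting error only), which lies above the levels of the other 4 libraries (mean 0.801 ± 0.187 CPM, SD, n = 4). Vehicle hepatocytes at 9 h, in contrast, had 525, 466, 490.3, 456 and 472 CPM in libraries MS-91 to MS-95 (482 ± 27.2, SD, n = 5). The deposited TPM was 0.214 to 1.34 at 24 h and 182.6 to 209.9 at 9 h. No library of the vehicle hepatocytes at 24 h reached the lowest of the other 25 hepatocyte libraries, which had 196 CPM. By mean TPM, the transcript held rank 20228 of all transcripts in vehicle hepatocytes at 24 h (18101 without MS-183), and a rank between 488 and 1447 in the other hepatocyte conditions.

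The treated hepatocytes of 24 h carried this transcript at high levels. The low-dose cultures had 738, 764, 786, 642 and 657 CPM (717 ± 64.5, SD, n = 5), above every hepatocyte library of 9 h. The high-dose cultures had 331, 357, 350.5, 384 and 345 CPM (353.6 ± 19.5, SD, n = 5), below every low-dose library of the same time. At each dose the libraries of 24 h lay above all libraries of that dose at 9 h, with ratios of the means of 1.68 in low-dose and 1.48 in high-dose cultures. The vehicle mean was 482 CPM at 9 h and 3.05 ± 5.03 CPM (SD, n = 5) at 24 h.

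ENSRNOT00000026473 showed the opposite arrangement. It had 227, 195, 4.01, 213 and 199.5 CPM in libraries MS-181 to MS-185, from 4561, 3666, 1, 6011.75 and 4188 estimated counts. The other 25 hepatocyte libraries had between 0.0843 and 1.48 CPM, from 2 to 39.0 counts. MS-183 was far below its group, with a single count that allows 0.102 to 22.3 CPM. The mean was 167.5 ± 92.3 CPM (SD, n = 5) with MS-183 and 208 ± 14.4 CPM (SD, n = 4) without it, and the latter would have given 52.0 counts at the depth of MS-183. In these 4 libraries the deposited TPM was 83.0, 91.2, 93.98 and 84.1, and in MS-183 it was 0.547. The level in the other hepatocytes was low in each condition, with means of 0.632 ± 0.167 CPM in vehicle cultures, 0.252 ± 0.119 in low-dose and 0.177 ± 0.0806 in high-dose cultures at 9 h, and 0.961 ± 0.359 in low-dose and 0.197 ± 0.0842 in high-dose cultures at 24 h (SD, n = 5 each). At 24 h the low-dose libraries (0.838, 0.491, 0.9498, 1.05 and 1.48 CPM) all lay above the high-dose libraries (0.0858, 0.254, 0.224, 0.134 and 0.287 CPM).

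ENSRNOT00000005311 was also higher in vehicle hepatocytes at 24 h, but 1 library decided its mean and 1 library of another condition overlapped it. Libraries MS-181 to MS-185 had 50.7, 45.2, 3245, 31.6 and 41.7 CPM. The estimated counts behind these values were close to each other, with 1021, 851, 809, 893 and 876, while MS-183 held far fewer counts on all transcripts together. At the mean level of the other 4 libraries, MS-183 would have held 10.6 counts in place of 809. The mean was 683 ± 1432 CPM (SD, n = 5) with MS-183 and 42.3 ± 8.03 CPM (SD, n = 4) without it. The deposited TPM, which counts the genomic intervals of the tables as well, was 8.11, 9.25, 195, 6.11 and 7.70, so that MS-183 stood out on that scale too, by a smaller factor.

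In the remaining hepatocytes this transcript was mostly near 1 CPM. Vehicle cultures at 9 h had 0.356, 0.451, 0.615, 1.57 and 3.81 CPM in MS-91 to MS-95, so that MS-94 and MS-95 stood above the others. High-dose cultures at 24 h had 37.8, 3.72, 2.39, 3.30 and 1.96 CPM in MS-116 to MS-120. The value of MS-116, from 881 counts, lay within the range of the vehicle cultures of 24 h, and the groups overlapped through it. Without MS-116 the high-dose mean was 2.84 ± 0.809 CPM (SD, n = 4), still above the low-dose cultures of 24 h, which had 0.802, 0.528, 0.645, 0.724 and 1.40 CPM.

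**Figure D1:**
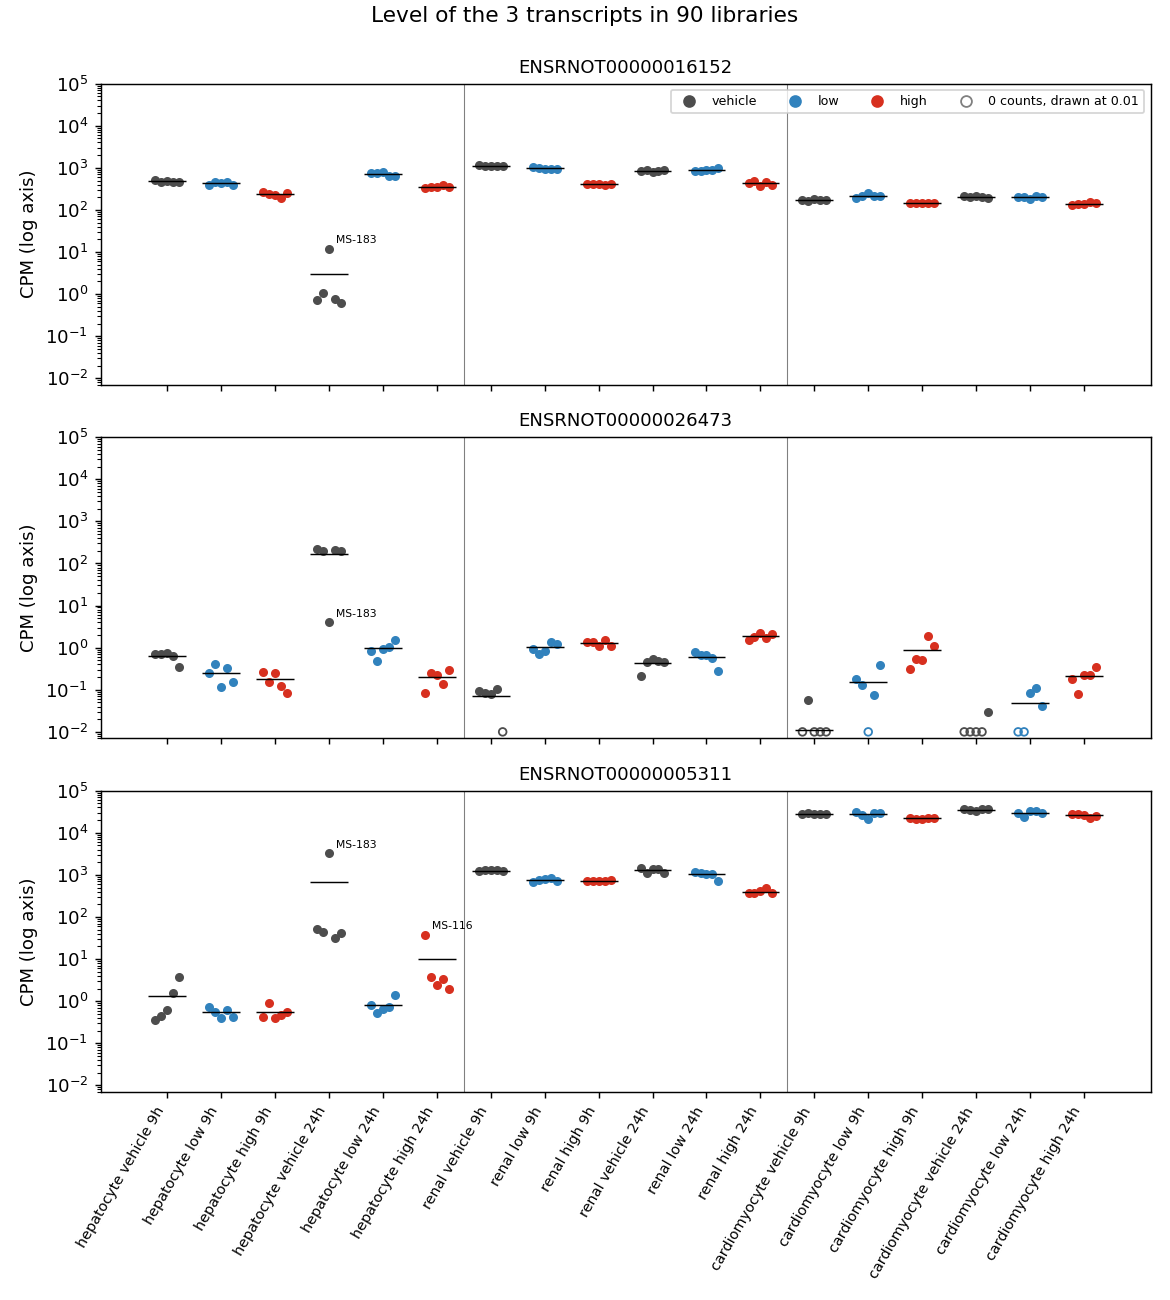
Level of each transcript (CPM, log axis) in the 90 libraries, with 1 point for each library, the 18 conditions of cell type, dose and time along the x axis and a bar at the mean of each condition. Vehicle hepatocytes at 24 h lie near 1 CPM for ENSRNOT00000016152 and near 200 CPM for ENSRNOT00000026473 apart from MS-183, and ENSRNOT00000005311 lies above 20874 CPM in each cardiomyocyte library.

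The size of these differences was set against all transcripts. The difference was taken as the mean log2(CPM + 0.5) of the 5 vehicle libraries of 24 h minus that of the other 25 hepatocyte libraries, over the 20245 transcripts with a mean of at least 1 CPM in at least 1 hepatocyte condition. It was -7.67 for ENSRNOT00000016152, 6.77 for ENSRNOT00000026473 and 5.96 for ENSRNOT00000005311, which held ranks 2, 5 and 8 by size. Without MS-183 the differences were -8.33, 7.87 and 4.70, with ranks 1, 2 and 27. Of the 3 transcripts, 1 was lower in each of the 5 libraries than in all other 25, as were 6.1% of all transcripts, and 1 was higher without overlap, as were 2.83% of all transcripts. Without MS-183 the counts of the 3 were the same, and these shares of all transcripts were 8.2% and 9.31%. A difference of at least 5 in size, which is 32-fold on this scale, was reached by 20 transcripts that were lower (0.0988%) and 6 that were higher (0.0296%), and without MS-183 by 22 (0.109%) and 3 (0.0148%), with ENSRNOT00000005311 no longer among them. Since these same libraries chose the 3 transcripts, nothing about them is read from these shares.

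**Figure D2:**
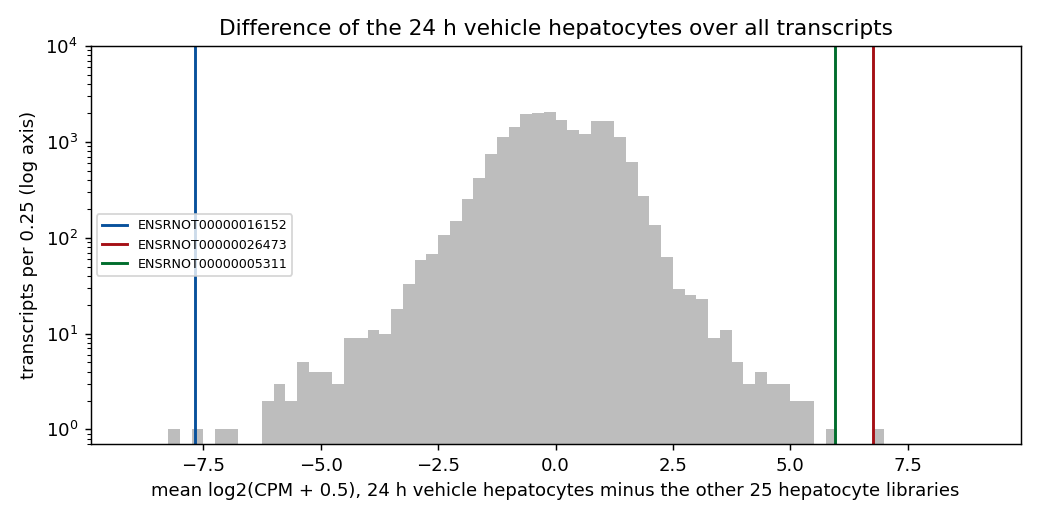
Number of transcripts (log axis) by the difference in mean log2(CPM + 0.5) between vehicle hepatocytes at 24 h and the other 25 hepatocyte libraries, for 20245 transcripts, with a vertical line for each of the 3 described. The lines at -7.67, 6.77 and 5.96 lie in the outer tails.

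The levels in the other cell types, which took no part in this choice, set the 3 transcripts apart from one another. ENSRNOT00000016152 was present in each renal and cardiomyocyte library, with 369 to 1163 CPM in the 30 renal libraries and 127.5 to 255.9 CPM in the 30 cardiomyocyte libraries. Its highest condition mean was that of vehicle renal cells at 9 h (1124 ± 25.6 CPM, SD, n = 5), and each renal vehicle and low-dose library lay above each hepatocyte library. ENSRNOT00000026473 did not exceed 2.22 CPM in any of these libraries and was at 0 counts in 12 of them. ENSRNOT00000005311 was a leading transcript of the cardiomyocytes, with 20874 to 37670.2 CPM, and was also well expressed in renal cells, with 362 to 1431 CPM. By mean TPM it held a rank between 6 and 14 of all transcripts in the 6 cardiomyocyte conditions and between 438 and 1467 in the 6 renal conditions.

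Ordered by mean level, the 18 conditions formed 17 pairs of neighbours for each transcript. The libraries of both neighbours overlapped in 8 of the 17 pairs for ENSRNOT00000016152, in 15 for ENSRNOT00000026473 and in 13 for ENSRNOT00000005311. For ENSRNOT00000016152 the order ran from vehicle renal cells at 9 h through the remaining renal vehicle and low-dose conditions, the low-dose hepatocytes of 24 h, the other hepatocytes and the high-dose renal cells, to the cardiomyocytes, with the vehicle hepatocytes of 24 h last and separate from the condition above them. For ENSRNOT00000026473, the vehicle hepatocytes of 24 h came first and high-dose renal cells at 24 h second, with no overlap between them. For ENSRNOT00000005311 all cardiomyocyte conditions came first, then the renal conditions, with the vehicle hepatocytes of 24 h among these with MS-183 and below all of these without it.

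Since ENSRNOT00000005311 was so abundant in cardiomyocytes, its level in each hepatocyte library was set beside that of other cardiomyocyte transcripts. A list was made, after the values had been seen, of the 33 transcripts with a mean of at least 500 CPM in vehicle cardiomyocytes at 9 h and under 1 CPM in vehicle hepatocytes at 9 h; none of the 3 transcripts is in it. The summed level of the list was 130.3 CPM in MS-181, 115.4 in MS-182, 8343 in MS-183, 80.3 in MS-184 and 106 in MS-185. It was 109.7 CPM in MS-116, between 23.7 and 47.5 CPM in the other 9 treated libraries of 24 h, and between 6.94 and 10.04 CPM in the 15 hepatocyte libraries of 9 h. MS-183 and MS-116, which stood above their groups for ENSRNOT00000005311 in CPM, thus also stood above them for this list. In counts the list had 2623, 2174, 2080, 2268 and 2215 in MS-181 to MS-185, so that MS-183 was the lowest of these. MS-116 had 2558 counts over the list, above the other high-dose hepatocyte libraries of 24 h. Cardiomyocytes had 38975 to 85314 CPM over the list and renal cells 7292 to 15764 CPM. The list was not chosen for its level in renal cells, which carried it as well.

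The ratio of ENSRNOT00000005311 to the summed list was nearly the same in the 5 vehicle libraries of 24 h, with 0.389, 0.391, 0.389, 0.394 and 0.395 in MS-181 to MS-185. Vehicle cardiomyocytes at 9 h had ratios of 0.381 to 0.400, and all 30 cardiomyocyte libraries 0.376 to 0.536. In MS-116 the ratio was 0.344, and in the other 4 high-dose hepatocyte libraries of 24 h it was 0.0694 to 0.0809. Renal cells had 0.0457 to 0.0939. At 9 h the hepatocytes had ratios of 0.0420 to 0.379, the highest being that of MS-95. Of the 33 transcripts, 7 were higher in each vehicle hepatocyte library of 24 h than in all other 25, where 2.83% of all transcripts were. With MS-116 left out, 21 of the 33 were, where 3.05% of all were, and 29 were higher in MS-116 than in the other 4 high-dose libraries of 24 h, where 18.3% of all were. The list was chosen for low levels in the vehicle hepatocytes of 9 h, which are among the 25, so that these counts are no independent measure. The part of cardiomyocyte RNA in the level of ENSRNOT00000005311 was not tested. ENSRNOT00000026473 was at or near 0 in cardiomyocytes, at most 1.89 CPM, and in MS-183 it held 1 count. The list had its highest CPM of all hepatocyte libraries in MS-183, but the fewest counts of the 5 vehicle libraries of 24 h. The part of cardiomyocyte RNA in the level of ENSRNOT00000026473 was not tested either.

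**Figure D3:**
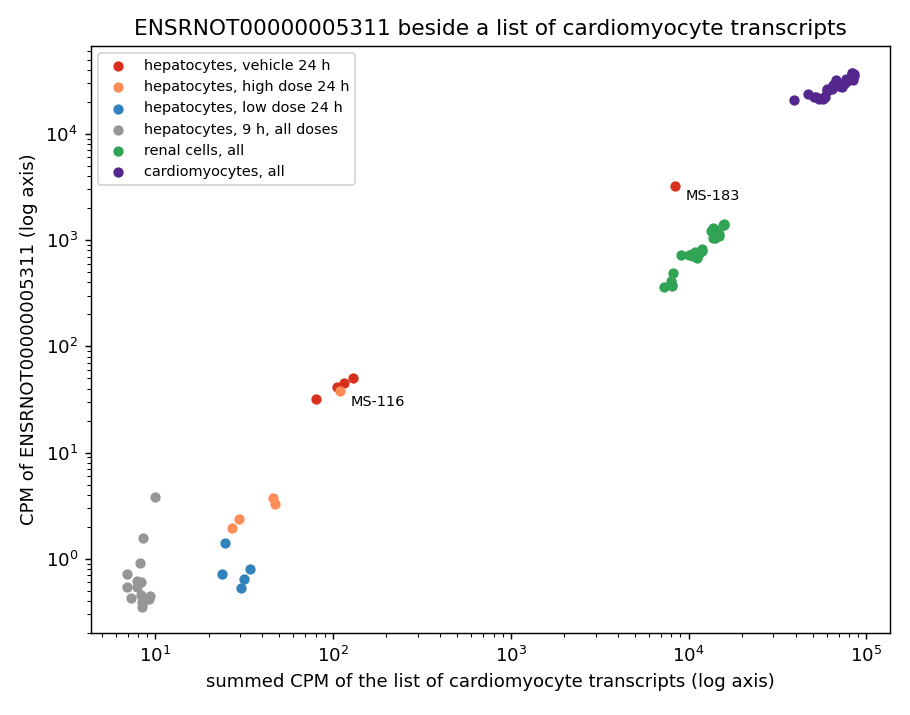
CPM of ENSRNOT00000005311 (log axis) against the summed CPM of 33 transcripts abundant in cardiomyocytes and low in hepatocytes (log axis), 1 point for each of the 90 libraries, coloured by cell type with the vehicle hepatocytes of 24 h set apart. The 5 vehicle hepatocyte libraries of 24 h lie along the line of the cardiomyocytes, with ratios of 0.389 to 0.395.

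Whether the dose moved these transcripts was asked in 10 comparisons of a dose with vehicle, of which the 2 in hepatocytes at 9 h use libraries that had served as a reference in the choice of the transcripts, though not this contrast, and a further 2 compared the times in vehicle cultures. Each was fitted with edgeR over all transcripts, with Benjamini-Hochberg adjusted p-values. A transcript was called where the adjusted p did not exceed 0.05 and the change was 0.41 or more on the natural-log scale (1.5-fold) in either direction. Of the 36 possible tests of the 3 transcripts, 30 passed the filter on low counts and 11 were called. In 3 of the 11, each of ENSRNOT00000026473 at 9 h, no vehicle library reached the filter's minimum, so that the transcript entered only through high treated libraries and a tested value had to differ from vehicle; these 3 are descriptions, and are marked where they are given. The low and high dose of one cell type and time share their vehicle libraries and are not independent of each other.

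In hepatocytes at 9 h, ENSRNOT00000016152 fell at the high dose. The low-dose libraries had 454, 445, 455, 401 and 386 CPM and the high-dose libraries 272, 245, 222, 196 and 256 CPM, against 456 to 525 CPM in vehicle. All low-dose values were below the lowest vehicle value, and all high-dose values were below all low-dose values. The log2 fold change was -0.15 (SE 0.06, edgeR adjusted p = 0.110) at the low dose and -0.93 (SE 0.09, edgeR adjusted p = 5.21e-06) at the high dose. At the high dose it was the 1 called of 2 transcripts tested, where 18.4% of all transcripts tested were called.

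ENSRNOT00000026473 was low in all hepatocytes of 9 h. Vehicle cultures had 0.711, 0.715, 0.760, 0.627 and 0.346 CPM, low-dose cultures 0.409, 0.118, 0.320, 0.157 and 0.254, and high-dose cultures 0.268, 0.152, 0.252, 0.125 and 0.0843. The vehicle values lay above those of the high dose without overlap, and overlapped those of the low dose through MS-95. At the low dose its log2 fold change was -1.30 (SE 0.36, edgeR adjusted p = 0.0281), and it was the 1 called of the 3, where 2.34% of all transcripts tested were called. It had passed the filter through 4 vehicle libraries and 1 low-dose library, which favours a value below 0. This call was lost with 7 of the 10 libraries when left out in turn, with no filter (edgeR adjusted p = 0.0674), with limma, where the change was smaller than the fold threshold (log2 fold change -0.59), and with all 6 hepatocyte groups in one fit, which takes its spread from the libraries of 24 h as well (edgeR adjusted p = 0.307). At the high dose it did not pass the filter.

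ENSRNOT00000005311 was not called in hepatocytes of 9 h. The low-dose libraries had 0.545, 0.393, 0.609, 0.431 and 0.725 CPM, and the high-dose libraries 0.422, 0.914, 0.397, 0.458 and 0.548 CPM. Both groups lay within the range of the vehicle libraries. The log2 fold change was -1.23 (SE 0.60, edgeR adjusted p = 0.189) at the low dose and -1.14 (SE 0.61, edgeR adjusted p = 0.146) at the high dose. The sign rested on vehicle libraries MS-94 and MS-95: with both left out, a choice made after seeing the data, the values were 0.20 and 0.28.

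In renal cells at the high dose ENSRNOT00000016152 and ENSRNOT00000005311 were called at both times and ENSRNOT00000026473 at 24 h, while its call at 9 h was fixed by the filter. ENSRNOT00000016152 had 411, 414, 419, 402 and 416 CPM at the high dose at 9 h against 1163, 1107, 1119, 1133 and 1098 CPM in vehicle, with no overlap. It fell by 1.42 on the log2 scale and was 2.67-fold lower (SE 0.02, edgeR adjusted p = 2.88e-13). At 24 h it had 430.4, 478, 369, 457 and 393 CPM against 829, 905, 815, 828 and 879 CPM in vehicle, again with no overlap (log2 fold change -1.06, SE 0.09, edgeR adjusted p = 3.07e-06). Of all transcripts tested at the high dose, 19.1% were called at 9 h and 26.9% at 24 h.

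ENSRNOT00000005311 also fell in high-dose renal cells. At 9 h it had 732, 718, 725, 708 and 768 CPM against 1219, 1279, 1279, 1294 and 1269 CPM in vehicle (log2 fold change -0.77, SE 0.02, edgeR adjusted p = 1.74e-10). At 24 h it had 376, 362, 411, 491 and 370.3 CPM against 1431, 1089.9, 1382, 1378 and 1139.9 CPM (log2 fold change -1.73, SE 0.10, edgeR adjusted p = 1.34e-07), which was 3.32-fold lower. The groups did not overlap at either time. The summed level of the list of 33, in whose choice renal cells took no part, was lower as well at the high dose. It was 10029 to 10879 CPM against 13435 to 13883 CPM in vehicle at 9 h, and 7292 to 8125 against 14815 to 15764 CPM at 24 h. Its part in the result was not tested.

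ENSRNOT00000026473 rose in high-dose renal cells at 24 h, from low counts, and was also higher at 9 h. At 9 h the vehicle libraries held 2, 2, 2, 3 and 0 counts and the high-dose libraries 32, 50, 30, 38 and 37 counts, which is 1.37, 1.40, 1.10, 1.54 and 1.08 CPM. The log2 fold change was 4.10 (SE 0.39, edgeR adjusted p = 2.64e-06). At 24 h vehicle had 0.215, 0.466, 0.552, 0.486 and 0.463 CPM and the high dose 1.56, 1.75, 2.22, 1.70 and 2.13 CPM, with no overlap (log2 fold change 2.04, SE 0.25, edgeR adjusted p = 5.37e-05). At 9 h the transcript passed the filter only through the treated libraries, so that a tested value had to differ from vehicle. The highest of these levels, 2.22 CPM, remained far below the 195 to 227 CPM of the 4 deep vehicle hepatocyte libraries of 24 h.

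The low dose of renal cells gave 2 calls at 9 h, 1 of which the filter had fixed, where 6.69% of all transcripts tested were called, and none at 24 h, where 0.0622% were called. At 9 h ENSRNOT00000026473 had 0.927, 0.693, 0.842, 1.36 and 1.24 CPM, above all vehicle libraries (0 to 0.105 CPM; log2 fold change 3.72, SE 0.45, edgeR adjusted p = 9.10e-05). It had passed the filter only through the low-dose libraries, so that this value had to differ. ENSRNOT00000005311 had 681, 776, 787, 831 and 725 CPM, below all vehicle libraries (log2 fold change -0.73, SE 0.05, edgeR adjusted p = 5.32e-07). The summed list of cardiomyocyte transcripts had 11118 to 11961 CPM, also below vehicle, and its part was not tested. ENSRNOT00000016152 had 1025, 998, 952, 917 and 961 CPM, also below all vehicle libraries, but its log2 fold change of -0.20 (SE 0.03, edgeR adjusted p = 9.11e-04) was smaller than the threshold. This dose, 0.125 mM, equals the high dose of the hepatocytes.

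At 24 h the low-dose renal libraries overlapped those of vehicle for each transcript. ENSRNOT00000016152 had 852, 841, 874, 886 and 1014 CPM (log2 fold change 0.23, SE 0.18, edgeR adjusted p = 0.774). ENSRNOT00000026473 had 0.791, 0.679, 0.673, 0.578 and 0.282 CPM (log2 fold change 0.55, SE 0.29, edgeR adjusted p = 0.766), and ENSRNOT00000005311 had 1177, 1133, 1048, 1052 and 718 CPM (log2 fold change -0.22, SE 0.08, edgeR adjusted p = 0.662). Library MS-145, the last of the 5, held the highest value of the first transcript and the lowest of the other two.

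In cardiomyocytes at the high dose, ENSRNOT00000016152 and ENSRNOT00000005311 were lower than in vehicle at both times, by less than the fold threshold. ENSRNOT00000016152 had 143.97, 144.6, 144.57, 143.7 and 143.95 CPM at 9 h against 172.4, 163.5, 177.1, 173.5 and 172.7 CPM in vehicle (log2 fold change -0.30, SE 0.03, edgeR adjusted p = 2.15e-06). At 24 h it had 127.5, 134.8, 141.7, 155.02 and 147.9 CPM against 209, 205, 218, 199 and 197 CPM (log2 fold change -0.55, SE 0.06, edgeR adjusted p = 3.32e-05). The groups were separate at both times.

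ENSRNOT00000005311 had 21406 to 22338 CPM at the high dose at 9 h against 27806 to 29175 CPM in vehicle (log2 fold change -0.42, SE 0.02, edgeR adjusted p = 1.27e-08). At 24 h it had 22390.3 to 28467 CPM against 32458 to 37670.2 CPM (log2 fold change -0.46, SE 0.07, edgeR adjusted p = 3.04e-04). Again no high-dose library reached the vehicle libraries of its time. The summed list of 33 was lower too, with 50883 to 58478 CPM against 70102 to 73956 CPM at 9 h and 57972 to 65999 against 82849 to 85314 CPM at 24 h, and its part in the result was not tested.

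ENSRNOT00000026473 was the 1 call of the high dose in cardiomyocytes at 9 h, where 12.6% of all transcripts tested were called. The vehicle libraries held 1 count in total, in MS-152, and the high-dose libraries 13, 22, 22, 77 and 49 counts, up to 1.89 CPM in MS-164. The ratio of summed CPM was 88.3 (95% counting interval 15.6 to 3506), and the fitted log2 fold change was 5.93 (SE 0.90, edgeR adjusted p = 2.31e-04). With 1 library left out, this fold change lay between 5.62 and 7.82 in the 6 fits that tested it. The transcript passed the filter only through the high-dose libraries, so that a tested value had to differ, and with any 1 of MS-162 to MS-165 left out it was no longer tested. At the high dose at 24 h it held 7, 2, 3, 7 and 10 counts against 1 count in all of vehicle, a ratio of 27.5 (95% counting interval 4.55 to 1122), and did not pass the filter. None of the 3 transcripts was called in that comparison, where 12.4% of those tested were.

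The low dose of cardiomyocytes gave no call of the 3 transcripts at either time. At 9 h, where 2.41% of all transcripts tested were called, ENSRNOT00000016152 had 195, 219.7, 256, 209 and 211 CPM, all above vehicle (log2 fold change 0.49, SE 0.19, edgeR adjusted p = 0.182). ENSRNOT00000005311 had 20874 to 31889.7 CPM, on both sides of vehicle (log2 fold change 0.05, SE 0.07, edgeR adjusted p = 0.725). The lowest of these came from MS-158, which held the highest value of ENSRNOT00000016152. At 24 h both transcripts overlapped vehicle, with 182.9 to 212 CPM (log2 fold change 0.18, SE 0.15, edgeR adjusted p = 0.565) and 23478 to 33134 CPM (log2 fold change -0.08, SE 0.11, edgeR adjusted p = 0.716). In that comparison 0.0% of all transcripts tested were called by edgeR, 2028 had an unadjusted p under 0.05, limma called 0, and DESeq2 called 1.02% of them. ENSRNOT00000026473 held 34 counts in all low-dose libraries at 9 h and 5 at 24 h and was not tested.

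The time of culture was compared in the vehicle cultures of the other cell types, as the comparison in which hepatocytes stood apart. In renal cells ENSRNOT00000016152 was lower at 24 h than at 9 h in all libraries (log2 fold change -0.31, SE 0.04, edgeR adjusted p = 3.22e-04), and in cardiomyocytes it was higher in all libraries (0.31, SE 0.04, edgeR adjusted p = 2.30e-04). ENSRNOT00000005311 overlapped between the times in renal cells (0.11, SE 0.06, edgeR adjusted p = 0.204) and was higher at 24 h in all cardiomyocyte libraries (0.39, SE 0.03, edgeR adjusted p = 7.34e-06), as was the summed list (82849 to 85314 against 70102 to 73956 CPM). None of these reached the fold threshold, where 9.1% of all transcripts tested were called in renal cells and 7.7% in cardiomyocytes. ENSRNOT00000026473 did not pass the filter in either comparison. Its level was 0.0723 ± 0.0416 CPM at 9 h, from 9 counts in total, and 0.436 ± 0.129 CPM at 24 h, from 50 counts, in vehicle renal cells (SD, n = 5 each), without overlap, and in vehicle cardiomyocytes it held 1 count at each time. In mean log2(CPM + 0.5), the 24 h value minus the 9 h value lay between -0.40 and 0.70 for the 3 transcripts in these cells. The 0.70 was that of ENSRNOT00000026473 in renal cells, where the added 0.5 shrinks the change and the ratio of the means was 6.04. In vehicle hepatocytes the 24 h value minus the 9 h value was -7.89 for ENSRNOT00000016152, 6.43 for ENSRNOT00000026473 and 6.05 for ENSRNOT00000005311, given as a description. Without MS-183 it was -8.54, 7.54 and 4.80.

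Differences between these effects, a choice made after seeing the data, were tested as interaction terms in edgeR, and the number of the 3 transcripts with an adjusted p of at most 0.05 is given beside the share of all transcripts tested. Between 24 h and 9 h it was 2 of 3 for the low dose in renal cells (5.63% of all) and 3 of 3 for the high dose (33.6%), and in cardiomyocytes 0 of 2 for the low dose (1.28%) and 1 of 2 for the high dose (21.0%). Between cell types at equal dose it was 2 of 3 for 0.125 mM at 9 h (38.5%), 1 of which the filter had fixed, and 2 of 3 for 0.5 mM at 9 h (23.4%) and at 24 h (24.5%).

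**Figure D4:**
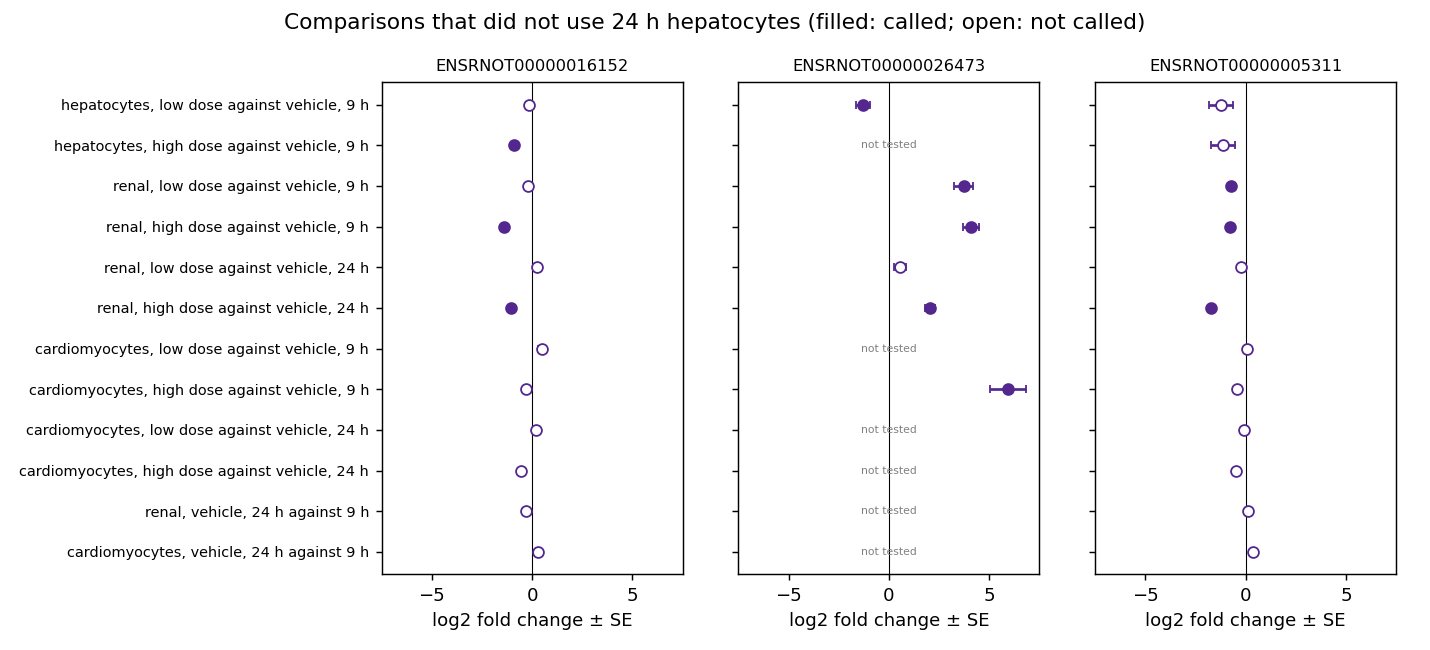
Log2 fold change with its standard error for each transcript in the 12 comparisons that did not use the hepatocyte libraries of 24 h, with filled points for called results and open points for others. ENSRNOT00000016152 and ENSRNOT00000005311 lie below 0 in each high-dose comparison of renal cells and cardiomyocytes, while 3 of the 5 points of ENSRNOT00000026473 in these cells, all of 9 h, had to lie above 0 because the transcript passed the filter only through treated libraries.

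For each of the 3, the transcripts with the most similar pattern were sought by Pearson's r over the 18 condition means of log2(CPM + 0.5), among 22454 transcripts with a mean of at least 1 CPM in 1 condition. The points share their libraries and depth, and r is given as a description. For ENSRNOT00000005311 these were ENSRNOT00000016423 (r = 0.998), ENSRNOT00000056022 (r = 0.995) and ENSRNOT00000004956 (r = 0.993), all in the list of 33 cardiomyocyte transcripts. In vehicle hepatocytes of 24 h they had 1092, 176.5 and 1031 CPM in MS-183 and 9.70, 2.25 and 9.999 CPM on average in the other 4 libraries. They were the same 3 with all 90 libraries as points, and when MS-183 was left out, but not by Spearman's rho.

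For the other two transcripts, most of the similar patterns changed with MS-183. Those of ENSRNOT00000016152 were ENSRNOT00000019647, ENSRNOT00000091427 and ENSRNOT00000077869 (r = 0.95 each), which were at 0 in MS-183 and at 38.9, 46.6 and 14.9 CPM on average in the other 4 libraries. With MS-183 left out ENSRNOT00000077869 was still the third (r = 0.85), and the most similar was ENSRNOT00000073915 (r = 0.93), with 61.8 ± 7.42 CPM in these 4 libraries (SD, n = 4) against 387 CPM in vehicle hepatocytes at 9 h and 184.5 CPM in MS-183; it was also the most similar with all 90 libraries as points (r = 0.91). Those of ENSRNOT00000026473 were ENSRNOT00000077165, ENSRNOT00000044883 and ENSRNOT00000016749 (r = 0.96 each), with 90.4, 20.1 and 116.3 CPM in MS-183 and 0.251, 0.0398 and 0.130 CPM on average in the other 4. All of these met the minimum of 1 CPM only through MS-183, in which ENSRNOT00000026473 held 1 count. Their r rests on that library. With MS-183 left out they were ENSRNOT00000086498, ENSRNOT00000076215 and ENSRNOT00000081448 (r = 0.97 each), with 0.0362, 0.0385 and 0.110 CPM on average in these 4 libraries and at most 0.0167 CPM on average in any other condition. These too had met the minimum of 1 CPM only through MS-183, which this setting leaves out. Their r compares values near 0, and nothing is read from it. With all 90 libraries as points they were ENSRNOT00000088719, ENSRNOT00000077848 and ENSRNOT00000009931 (r = 0.89 each), with 1.47, 3.99 and 1.93 CPM on average in the 4 libraries, 0, 0.211 and 0 CPM in MS-183, and at most 0.326 CPM on average in any other condition. None of these 9 was at a level near that of ENSRNOT00000026473 in the 4 deep libraries. By Spearman's rho they were ENSRNOT00000027293 (rho = 0.95), ENSRNOT00000016265 (rho = 0.89) and ENSRNOT00000071977 (rho = 0.88). These had 8.57, 67.2 and 1.57 CPM on average in the 4 libraries, and at most 10.7, 39.9 and 3.18 CPM on average in any other condition.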

How the data were processed

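The authors deposited, for each library, estimated counts and TPM per target from kallisto (version 0.42.4 and genome build Rnor 6.0 in the submitters' processing notes), and all tables list the same 65166 targets: 40071 transcripts and 25095 genomic intervals. Libraries were poly-A-enriched, stranded and read from both ends. A read that fits several transcripts is divided among them: the counts were whole (within 1e-06) in all 90 libraries for ENSRNOT00000016152 and ENSRNOT00000005311, and in 82 for ENSRNOT00000026473. No 2 tables were identical.

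CPM was computed over the transcripts only. For the tests, estimated counts were rounded and fitted for each pair of groups with edgeR 4.0.16 in R 4.3.3 (filterByExpr, TMM, glmQLFit, glmQLFTest), with adjustment over all transcripts tested, and a standard error equal to the size of the log2 fold change over the square root of F. The median log2 fold change of all transcripts lay between -0.01 and 0.02 in each comparison. The functions were tested on simulated data. Alternatives were DESeq2 1.42.0, upper-quartile normalization, no filter beyond 1 count, limma 3.58.1 on log2(CPM + 0.5), a joint fit of the 6 groups of each cell type, calls by adjusted p alone, other pseudocounts, and leaving out each library in turn. Differences between effects, the list of 33 cardiomyocyte transcripts and the joint removal of MS-94 and MS-95 were added after seeing the data.

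The 3 transcripts and the lists were chosen with earlier results of these data known. The text names these 3 and, for each, the 3 transcripts of highest r, with some of those found under other settings. The planned lists of marker and pathway genes could not be used, because no identifier was matched to a gene. No sequence is printed for the same reason. Intervals on counts are 95% exact Poisson intervals and cover counting error only.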

Additional observations from a re-analysis of the deposited data

Results flagged for a closer look

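Dixon's test was applied to 34 sets of 5 libraries (the 3 transcripts in renal cells and cardiomyocytes, without sets with 1 library above 0; the hepatocytes had taken part in the choice of the transcripts). In 4 of them 1 library stood farther from the others than the test allows; chance would give about 1.7. They were MS-145 of the low-dose renal cells at 24 h for ENSRNOT00000016152 (1014 CPM) and ENSRNOT00000005311 (718 CPM), and, for ENSRNOT00000026473 at very low counts, MS-125 (0 CPM) and MS-136 (0.215 CPM) in vehicle renal cells at 9 and 24 h.

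Differences between effects that had an adjusted p of at most 0.05 as interaction terms in edgeR were the following. In renal cells the low-dose effect at 24 h minus that at 9 h was -3.19 (log2, SE 0.56, edgeR adjusted p = 0.00116) for ENSRNOT00000026473 and 0.49 (SE 0.09, edgeR adjusted p = 0.00201) for ENSRNOT00000005311. The high-dose effect differed between the times by 0.36 (SE 0.09, edgeR adjusted p = 0.00596) for ENSRNOT00000016152, by -2.07 (SE 0.47, edgeR adjusted p = 0.00188) for ENSRNOT00000026473 and by -0.97 (SE 0.10, edgeR adjusted p = 4.20e-07) for ENSRNOT00000005311. In cardiomyocytes the high-dose effect on ENSRNOT00000016152 differed by -0.24 (SE 0.06, edgeR adjusted p = 0.00877). The differences for ENSRNOT00000026473 rest on vehicle libraries with at most 3 counts at 9 h, of which none reached the minimum of the filter, while 4 vehicle libraries of 24 h and 4 of the low or 5 of the high dose did.

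Cell types were also compared at equal dose, each against its own vehicle cultures. At 0.125 mM and 9 h the effect in renal cells minus that in hepatocytes was 0.73 (log2, SE 0.10, edgeR adjusted p = 5.13e-06) for ENSRNOT00000016152 and 5.45 (SE 0.61, edgeR adjusted p = 5.78e-07) for ENSRNOT00000026473, which reached the filter's minimum in the low-dose renal libraries and in none of the vehicle renal libraries, so that its renal effect had to lie above 0 and this difference is a value only. At 0.5 mM and 9 h the effect in cardiomyocytes minus that in renal cells was 1.91 (SE 0.19, edgeR adjusted p = 5.63e-07) for ENSRNOT00000016152 and 0.83 (SE 0.06, edgeR adjusted p = 2.57e-08) for ENSRNOT00000005311. At 24 h these were 1.20 (SE 0.16, edgeR adjusted p = 1.86e-05) and 1.61 (SE 0.13, edgeR adjusted p = 2.95e-08).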

How the results depend on the processing

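The level differences between vehicle hepatocytes of 24 h and the other hepatocytes kept their direction in 15 of 15 alternatives of pseudocount, unit and scaling and with each of the 5 libraries left out. Without MS-183 they were -8.33, 7.87 and 4.70. Of the tests of dose and time, the number of the 3 transcripts that were called moved as follows. For the low dose in hepatocytes at 9 h, 1 call became 0 with no filter, with limma and with all groups in one fit (0 to 1 with a library left out), and DESeq2 gave no adjusted p for ENSRNOT00000026473. For the high dose in hepatocytes at 9 h, 1 call became 2 with no filter, with all groups in one fit and with MS-94 and MS-95 both left out (1 to 2 with 1 library left out), the second being ENSRNOT00000026473, which then passed the filter. With libraries left out it passed only through vehicle libraries, as no high-dose library reached the filter's minimum. A tested value then had to lie below 0, so that these calls are descriptions. For the high dose in cardiomyocytes at 9 h, 1 call became 3 without a fold-change threshold and 0 with all groups in one fit, where ENSRNOT00000026473 did not pass the filter (0 to 1 with a library left out). For the high dose in cardiomyocytes at 24 h, 0 became 2 without a fold-change threshold and 1 with no filter. Of all transcripts tested at this dose in cardiomyocytes, 9136 of 17871 at 9 h and 6952 of 17286 at 24 h had an unadjusted p under 0.05 in edgeR. For the times in vehicle renal cells, 0 became 1 without a fold-change threshold, with no filter and with all groups in one fit (0 to 1 with a library left out: MS-121 to MS-125 or MS-136), and in vehicle cardiomyocytes 0 became 2 without a fold-change threshold. In renal cells the call with a library left out was that of ENSRNOT00000026473. It passed the filter only through vehicle libraries of 24 h, so that its value had to lie above 0 and is a description. In the remaining 6 comparisons the number stayed within 1.5 times. The share of all transcripts called was computed for the main setting, DESeq2 and limma only. Nothing about the 3 transcripts is therefore read from these moves. With limma on log2(CPM + 0.5), where the pseudocount shrinks the change of a low transcript, the log2 fold change of ENSRNOT00000026473 was 1.39 in place of 3.72 and 1.65 in place of 4.10 at the low and the high dose in renal cells of 9 h, 1.35 in place of 2.04 at the high dose of 24 h, and 1.32 in place of 5.93 at the high dose in cardiomyocytes of 9 h. The sign changed for ENSRNOT00000005311 in hepatocytes of 9 h with MS-94 and MS-95 both left out (0.20 at the low and 0.28 at the high dose), for ENSRNOT00000005311 at the low dose in cardiomyocytes at 9 h with limma (-0.049) and for ENSRNOT00000016152 at the low dose in cardiomyocytes at 24 h with limma (-0.043); the cause was not tested, and none of these 4 had been called.

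Depth limits ENSRNOT00000026473 outside the vehicle hepatocytes of 24 h, where many libraries hold under 10 counts, and in MS-183 ENSRNOT00000016152 (3 counts) and ENSRNOT00000026473 (1 count). The most similar transcripts of ENSRNOT00000016152 and ENSRNOT00000026473 changed with the setting, and those of ENSRNOT00000005311 with Spearman's rho. No paired analysis was possible because the replicate numbers are library numbers that no 2 groups share.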
